A study of Mus musculus with 12 samples.

Results

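Fc receptors bind the constant part of antibodies, and 7 mouse genes through which these receptors and their ITAM adaptors signal were followed in the liver. They were chosen by name, with earlier results of these data known. The set holds the activating receptors for IgG Fcgr1, Fcgr3, and Fcgr4, the inhibitory receptor Fcgr2b, the adaptors Fcer1g and Tyrobp, and the kinase Syk. These are 7 of the 40551 genes in the count tables. All 7 passed the filter on low counts that left 15070 genes for testing. The data were total RNA-seq gene counts of 12 livers, 3 from each of 4 genotypes named WT, Mcl1 KO, Mcl1 Sting1 DKO, and Sting1 KO in the labels. In Mcl1 KO mice, floxed alleles of Mcl1, a gene that protects cells from apoptosis, were deleted by Cre under the albumin promoter, which acts in hepatocytes. In such livers the paper found MCL1 staining almost only in nonparenchymal cells. Sting1 KO mice were Sting1-/-, lacking the adaptor of cytosolic DNA sensing, and Mcl1 Sting1 DKO mice came from crossing both lines. The WT and Mcl1 KO livers were from mice of 2 months, the age of the others was not stated beside the RNA-seq, and both sexes were used. A strain was not given in the sources used here.

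Activating Fc receptors do not signal alone. They pair with the γ-chain Fcer1g, whose cytoplasmic tail holds an immunoreceptor tyrosine-based activation motif (ITAM). Once an antibody complex clusters the receptor, kinases of the Src family phosphorylate the ITAM and Syk docks on it. Tyrobp, also called DAP12, is a second ITAM adaptor that serves Trem2 and other innate receptors rather than Fc receptors. Fcgr2b carries the opposing inhibitory motif (ITIM), which recruits the phosphatase Inpp5d. In the liver, Kupffer cells and infiltrating myeloid cells are known to use the activating receptors, whereas Fcgr2b is also known for its place on sinusoidal endothelium, where it clears small immune complexes.

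Between 28826367 and 45266387 reads fell on genes per library. Mcl1 checked the labels, at 98.6 ± 7.36 CPM in WT, 29.0 ± 4.58 in Mcl1 KO, 22.3 ± 3.96 in Mcl1 Sting1 DKO, and 81.8 ± 7.20 in Sting1 KO livers (mean ± SD, n = 3 each, here and below unless stated; CPM are counts scaled to a common library total by TMM factors). Sting1 did not, since its counts over the whole gene were low in every group, at 2.36 ± 0.219 CPM in WT, 4.75 ± 1.17 in Mcl1 KO, 2.25 ± 0.321 in Mcl1 Sting1 DKO, and 1.86 ± 0.779 in Sting1 KO livers. Between Sting1 KO and WT livers its log2 difference of −0.33 did not pass the test (standard error, SE, 0.30, adjusted p = 0.998, from the quasi-likelihood test of edgeR). Small structured RNAs took 2.37 and 1.36% of the counts in Mcl1 KO replicates 2 and 3 and 0.172 to 0.897% in the other 10 libraries. A list of skeletal muscle genes summed to 1373 CPM in Mcl1 KO replicate 3 and to at most 7.68 CPM elsewhere. Y-linked genes were expressed in WT replicates 2 and 3 and Mcl1 Sting1 DKO replicate 1, so the sexes were not balanced between groups. No label said how livers were assigned to sequencing runs.

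Positions are those of GRCm39 with GENCODE vM39, and 4 of the 7 genes lie on chromosome 1. Fcgr2b (ENSMUSG00000026656, chromosome 1, 170786186 to 170804177, minus strand), Fcgr4 (ENSMUSG00000059089, chromosome 1, 170846466 to 170857330, plus strand), and Fcgr3 (ENSMUSG00000059498, chromosome 1, 170878738 to 170893549, minus strand) lie near each other, and Fcer1g (ENSMUSG00000058715, chromosome 1, 171057141 to 171062219, minus strand) is on the same chromosome. Fcgr1 (ENSMUSG00000015947) is at chromosome 3, 96190225 to 96201338, minus strand. Tyrobp (ENSMUSG00000030579) is at chromosome 7, 30113170 to 30117010, plus strand, and Syk (ENSMUSG00000021457) at chromosome 13, 52736696 to 52802828, plus strand. Fcgr2b and Fcgr3 have similar coding sequences, and 3.003% of the 100-base windows in Fcgr2b transcripts and 2.11% of those in Fcgr3 transcripts also occurred in a transcript of another gene, each other included. Their values are uncertain to that extent, because the sources used here do not say how reads with several matches were counted. No such window was found for the other 5 genes.

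The RefSeq promoter table, which runs from 250 bases before to 50 bases after each start, held 6 of the 7 genes and had no entry for Tyrobp. Shown are the promoters of Fcgr1, Fcgr3, and Fcer1g, and that of Fcgr2b, which had a smaller change than these between Mcl1 KO and WT livers. Each was found once in GRCm39 and is printed 5′ to 3′ on the strand of its gene, at chr3:96201236-96201535 for Fcgr1, chr1:170886923-170887222 for Fcgr3, chr1:170803591-170803890 for Fcgr2b, and chr1:171061869-171062168 for Fcer1g, all on the minus strand. The windows of Fcgr3, Fcgr2b, and Fcer1g lie inside the span that GENCODE gives these genes, whose most upstream transcripts start earlier. Capitals mark 3 motifs searched on both strands, namely GAGGAA, the core bound by the myeloid factor PU.1, GGAAGT, a core of the wider ETS family, and TTCNNNGAA, the form bound by STAT factors. GAGGAA and GGAAGT can overlap by sharing the bases GGAA.
Fcgr1: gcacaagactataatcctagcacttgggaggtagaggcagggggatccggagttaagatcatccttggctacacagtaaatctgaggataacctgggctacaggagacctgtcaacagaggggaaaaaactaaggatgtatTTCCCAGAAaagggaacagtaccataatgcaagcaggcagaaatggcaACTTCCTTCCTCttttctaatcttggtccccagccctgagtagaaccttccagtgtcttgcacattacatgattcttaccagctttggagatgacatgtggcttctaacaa
Fcgr3: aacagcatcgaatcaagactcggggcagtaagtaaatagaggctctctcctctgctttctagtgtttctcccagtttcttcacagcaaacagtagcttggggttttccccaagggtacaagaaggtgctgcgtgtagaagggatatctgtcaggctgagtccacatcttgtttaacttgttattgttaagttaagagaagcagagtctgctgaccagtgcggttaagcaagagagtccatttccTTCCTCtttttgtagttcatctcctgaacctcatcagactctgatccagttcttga
Fcgr2b: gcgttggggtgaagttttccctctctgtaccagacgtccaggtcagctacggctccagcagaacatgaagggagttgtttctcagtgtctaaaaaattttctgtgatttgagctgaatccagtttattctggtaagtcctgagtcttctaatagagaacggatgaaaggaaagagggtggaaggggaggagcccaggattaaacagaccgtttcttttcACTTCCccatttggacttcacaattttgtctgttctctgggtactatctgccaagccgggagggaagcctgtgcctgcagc
Fcer1g: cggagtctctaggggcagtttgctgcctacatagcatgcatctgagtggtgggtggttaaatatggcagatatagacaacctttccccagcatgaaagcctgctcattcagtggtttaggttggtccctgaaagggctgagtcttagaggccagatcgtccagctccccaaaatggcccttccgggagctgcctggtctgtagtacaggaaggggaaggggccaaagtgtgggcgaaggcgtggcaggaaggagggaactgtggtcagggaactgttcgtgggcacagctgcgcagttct

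GAGGAA was present in the promoters of Fcgr1, Fcgr3, and Fcgr4, which are the 3 activating receptors. It occurred in 28.3% of 32851 promoters of the same length, a set that leaves out the chromosome of Sting1. All 3 copies read TTCCTC on the gene's strand, 55 bases before the start in Fcgr1, 22 in Fcgr4, and 6 in Fcgr3 (position of the first base). GGAAGT was present in Fcgr1, Fcgr2b, and Fcgr4 and in 23.8% of the 32851 promoters, with the copies of Fcgr4 overlapping GAGGAA. TTCNNNGAA was found only in Fcgr1 among the 6 genes, beginning 109 bases before the start, and in 8.3% of the 32851 promoters. Fcer1g and Syk held none of these letters in this window. These matches describe letters and are not evidence of binding.

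Per kilobase of exon, Tyrobp was the most abundant of the 7 genes in WT livers, at 22.5 ± 4.63 CPM per kb. Fcer1g had 6.63 ± 1.26, Fcgr2b 5.63 ± 0.968, and Fcgr4 5.25 ± 2.15 CPM per kb, and the libraries of these 3 overlapped. Fcgr3 followed at 3.22 ± 0.0624 CPM per kb, with its highest library (3.29) just under the lowest of Fcgr4 (3.32). Fcgr1 at 1.37 ± 0.575 and Syk at 0.953 ± 0.0981 CPM per kb were the lowest and overlapped. The lengths are those of all annotated exons together, so a gene with long, rarely used exons reads low on this scale. Tyrobp was thus the most abundant member and Syk among the least, and in Mcl1 KO livers these ends of the order were the same, at 66.4 ± 21.2 and 1.77 ± 0.216 CPM per kb.

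**Figure D1:**
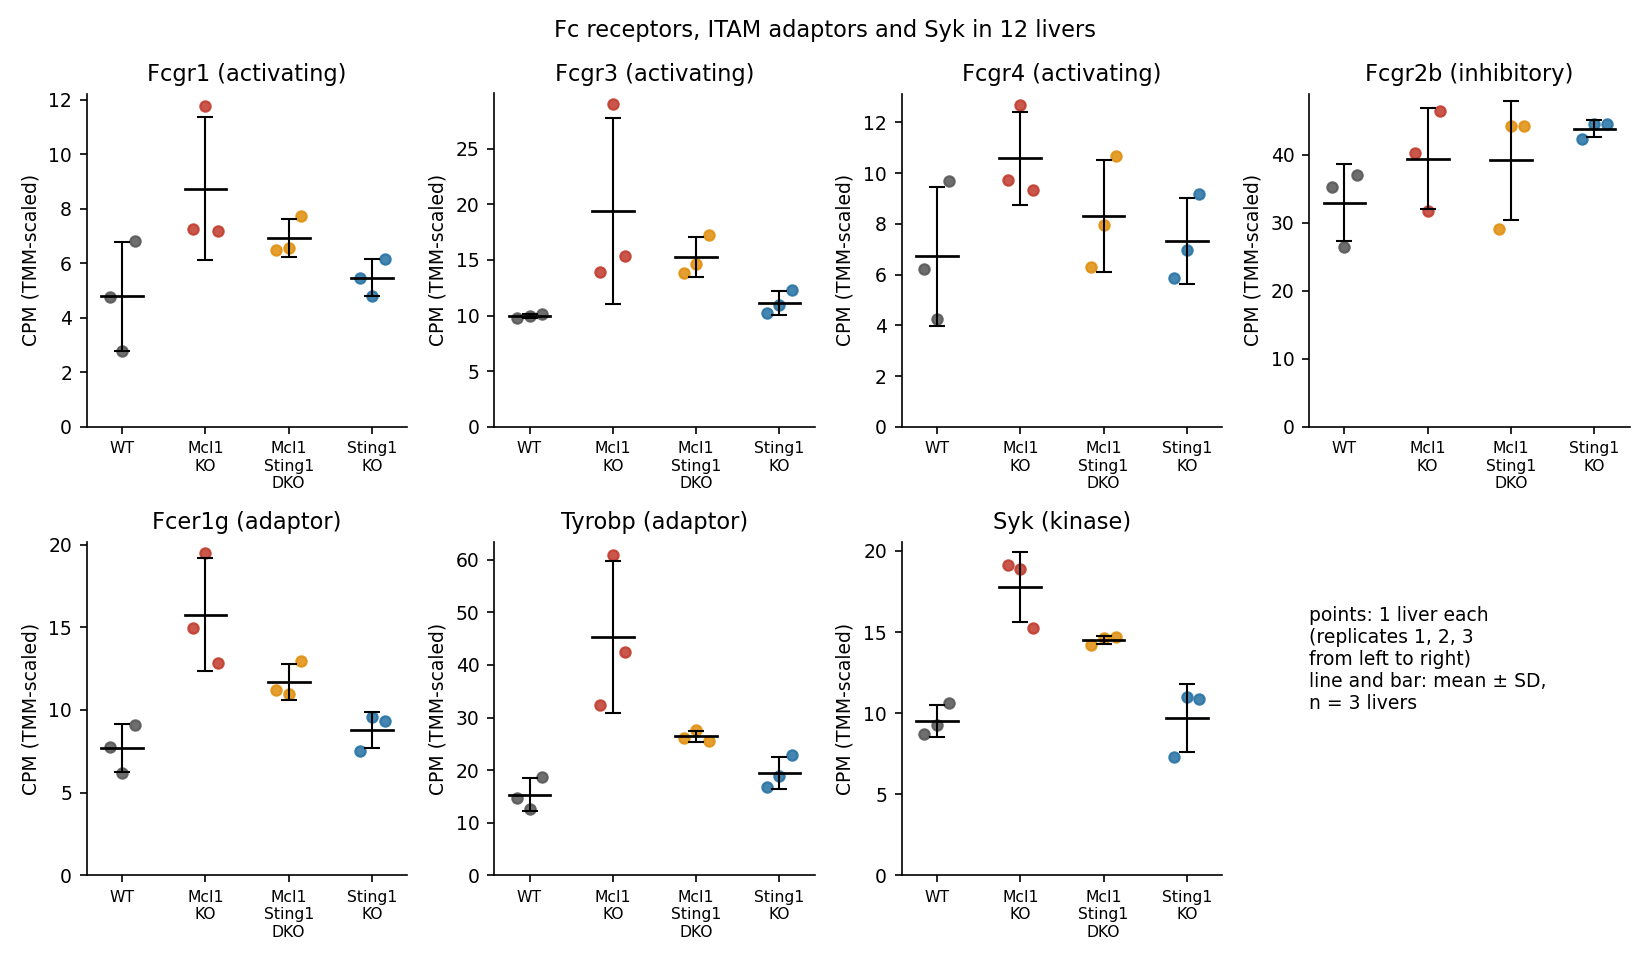
CPM (TMM-scaled) of the 7 genes in each of 12 livers by genotype, with the mean and SD of 3 livers as line and bar. For Fcgr1, Fcgr3, Fcer1g, Tyrobp, and Syk, all 3 Mcl1 KO livers sit above all 3 WT livers, while the Fcgr2b groups overlap.

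The comparison of Mcl1 KO with WT livers asks how these genes differ when hepatocytes lose Mcl1. Y-linked genes were expressed in WT replicates 2 and 3 but in no Mcl1 KO liver. Sex and genotype can therefore not be fully told apart in this comparison. Tyrobp rose 2.95-fold, Fcer1g 2.04-fold, Fcgr3 1.94-fold, and Syk 1.86-fold, so that both adaptors, the kinase, and 1 activating receptor passed the test. Fcgr1 and Fcgr4 had positive changes that did not pass it, and Fcgr2b had the smallest change of the 7. Thus 4 of 7 genes were called higher (adjusted p under 0.05), against 10.8% of all tested genes. In 5 of 7, the groups had no overlap in that direction, against 16.2% of all tested genes. Because the 7 were chosen with earlier results of these data known, such shares describe them and do not test the set. The median log2 fold change of the 7 was 0.89, beside −0.0049 over all tested genes. In whole liver RNA, more cells of a type and more RNA per cell cannot be told apart.

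Tyrobp had 14.6, 12.5, and 18.8 CPM in the 3 WT livers and 32.4, 60.9, and 42.6 CPM in the 3 Mcl1 KO livers. The groups were far apart, and Mcl1 KO replicate 2 was the highest of the 12 livers. Its log2 fold change was 1.56 (SE 0.22, adjusted p = 0.00182 by edgeR). Over all alternatives run, the change stayed between 0.998 and 1.75 with adjusted p-values of at most 0.0231 by edgeR or DESeq2, so Tyrobp was called in every one.

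Fcer1g had 7.76, 6.20, and 9.11 CPM in WT and 14.98, 19.5, and 12.8 CPM in Mcl1 KO livers, again without overlap. This γ-chain rose by 1.03 on the log2 scale (SE 0.19, adjusted p = 0.00508 by edgeR). Syk had 8.73, 9.25, and 10.6 CPM in WT and 19.1, 18.9, and 15.3 CPM in Mcl1 KO livers. Mcl1 KO replicate 2 was not the highest liver for this kinase, which rose by 0.89 (SE 0.17, adjusted p = 0.00566 by edgeR). With a covariate for small structured RNAs, the adjusted p-values were 0.0766 for Fcer1g and 0.0537 for Syk by edgeR, with changes of 0.81 and 0.86.

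Fcgr3, a low-affinity activating receptor, had 9.79, 9.94, and 10.2 CPM in WT and 13.9, 29.0, and 15.3 CPM in Mcl1 KO livers. The WT livers were nearly equal, and Mcl1 KO replicate 2 was far above both other Mcl1 KO livers. The log2 fold change was 0.96 (SE 0.24, adjusted p = 0.0172 by edgeR). It depended on that liver for its size, being 0.55 (adjusted p = 0.0406 by edgeR) without it, 0.48 (adjusted p = 0.116 by edgeR) without both Mcl1 KO libraries that held over 1% small structured RNAs, and 0.34 (adjusted p = 0.321 by edgeR) with that share as a covariate. Leaving out WT replicate 2 or WT replicate 3 also ended the call (adjusted p = 0.0606 and 0.0525 by edgeR), with changes of 0.95 and 0.97, as did a covariate for Y-linked expression (0.90, adjusted p = 0.0813 by edgeR).

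Fcgr1, the high-affinity receptor for IgG, had 4.78, 2.79, and 6.80 CPM in WT and 7.26, 11.8, and 7.18 CPM in Mcl1 KO livers. The groups did not overlap, but WT replicate 3 came close to the lower Mcl1 KO livers. The log2 fold change of 0.86 (SE 0.29) had an adjusted p of 0.0533 by edgeR and of 0.0226 by DESeq2. Without WT replicate 3 the change was 1.19 (adjusted p = 0.0293 by edgeR), and without Mcl1 KO replicate 1 it was 0.98 (adjusted p = 0.0367 by edgeR). In the other direction, it was 0.59 without Mcl1 KO replicate 2 (adjusted p = 0.227 by edgeR), 0.60 without both Mcl1 KO libraries over 1% small structured RNAs (adjusted p = 0.375 by edgeR), and 0.43 with a covariate for these RNAs (adjusted p = 0.506 by edgeR).

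Fcgr4, an activating receptor for IgG2 subclasses, had 6.23, 4.24, and 9.68 CPM in WT and 9.72, 12.7, and 9.33 CPM in Mcl1 KO livers. WT replicate 3 lay above the lowest Mcl1 KO liver, and the log2 fold change of 0.65 (SE 0.29) did not pass the test (adjusted p = 0.127 by edgeR). Without WT replicate 3 it was 1.002 (adjusted p = 0.0479 by edgeR). It was 0.41 without WT replicate 2, 0.50 without Mcl1 KO replicate 2 (adjusted p = 0.354 by edgeR), and 0.37 with a covariate for small structured RNAs (adjusted p = 0.619 by edgeR). In WT livers, replicate 3 was the highest and replicate 2 the lowest for Fcgr1, Fcgr2b, Fcgr4, Fcer1g, and Tyrobp alike.

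Fcgr2b, the inhibitory receptor, had 35.3, 26.5, and 37.1 CPM in WT and 40.2, 31.7, and 46.5 CPM in Mcl1 KO livers, and the groups overlapped. Its log2 fold change was 0.26 (SE 0.20, 95% interval −0.17 to 0.68, adjusted p = 0.355 by edgeR). Mcl1 KO replicate 2, the highest liver for Fcgr1, Fcgr3, Fcgr4, Fcer1g, and Tyrobp, was the lowest of the Mcl1 KO livers for Fcgr2b. The interval leaves room for a rise of Fcgr2b of up to 0.68.

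**Figure D2:**
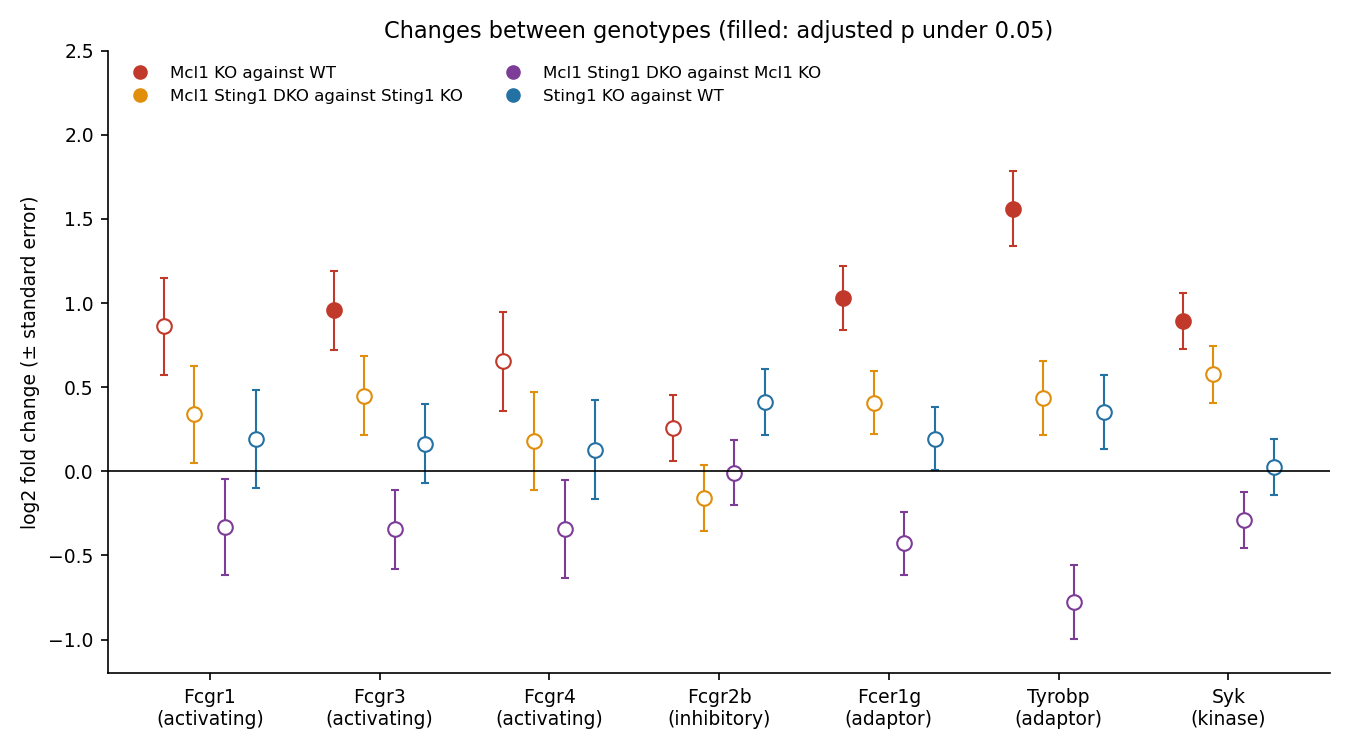
Log2 fold change (points) with standard error (bars) of each gene in 4 comparisons between genotypes, filled where the adjusted p was under 0.05. Only the comparison of Mcl1 KO with WT has filled points (Fcgr3, Fcer1g, Tyrobp, and Syk), and Mcl1 Sting1 DKO against Mcl1 KO is below 0 for all 7 genes.

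Whether deletion of Sting1 altered these genes in livers without hepatocyte Mcl1 was asked by comparing Mcl1 Sting1 DKO with Mcl1 KO livers. All 7 log2 fold changes were negative, with a median of −0.34 beside −0.0021 over all tested genes, but none was called by edgeR, nor was any of the 15070 genes (0%). At an unadjusted p under 0.05, 2 of 7 genes passed, Tyrobp and Fcer1g, against 20.6% of all tested genes. In Tyrobp and Syk, all 3 Mcl1 Sting1 DKO livers were below all 3 Mcl1 KO livers, which held for 9.28% of all tested genes. This comparison shares the Mcl1 KO livers with the one before, so a high Mcl1 KO liver enters both with opposite sign.

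Tyrobp had 26.1, 27.6, and 25.5 CPM in Mcl1 Sting1 DKO livers, a narrow range below the lowest Mcl1 KO liver (32.4). The log2 fold change was −0.78 (SE 0.22, unadjusted p = 0.00418, adjusted p = 0.136 by edgeR). DESeq2 called it, with −0.78 and an adjusted p of 0.0333, when it called 2.28% of the genes it tested as lower. Without Mcl1 KO replicate 1 it was −0.96 (adjusted p = 0.00884 by edgeR), with 9.08% of genes called lower, whereas without both Mcl1 KO libraries over 1% small structured RNAs it was −0.29 (adjusted p = 0.765 by edgeR).

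Syk had 14.2, 14.6, and 14.7 CPM in Mcl1 Sting1 DKO livers, just under the lowest Mcl1 KO liver (15.3), and its log2 fold change was −0.29 (SE 0.17, adjusted p = 0.330 by edgeR). Fcer1g had 11.2, 10.9, and 12.9 CPM, of which the highest passed the lowest Mcl1 KO liver (12.8), with a change of −0.43 (SE 0.19, adjusted p = 0.224 by edgeR). Fcgr1, Fcgr3, and Fcgr4 had changes of −0.33, −0.35, and −0.34 with adjusted p-values from 0.411 to 0.530 by edgeR, and Fcgr3 turned to 0.06 without Mcl1 KO replicate 2. Fcgr2b was at 29.1, 44.3, and 44.2 CPM with a change of −0.01 (95% interval −0.43 to 0.42, adjusted p = 0.985 by edgeR).

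On the Sting1-/- background, Mcl1 Sting1 DKO livers were compared with Sting1 KO livers, again to ask for the effect of Mcl1 loss. None of the 7 genes was called by edgeR or DESeq2, while edgeR called 0.803% of all tested genes. At an unadjusted p under 0.05, 2 of 7 passed (Syk and Fcer1g), against 11.3% of all tested genes. The direction was positive for 6 of 7, and in 5 of 7 the groups did not overlap, against 11.5% of all tested genes in that direction. Sting1 KO livers had 16.8, 19.0, and 22.8 CPM of Tyrobp, all below the Mcl1 Sting1 DKO livers, with a log2 fold change of 0.43 (SE 0.22, adjusted p = 0.506 by edgeR). Syk had the largest change, 0.58 (SE 0.17, unadjusted p = 0.00480, adjusted p = 0.162 by edgeR), from 7.27, 10.99, and 10.9 CPM in Sting1 KO livers. Fcgr2b was the 1 gene with a negative change, −0.16 (95% interval −0.58 to 0.26).

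The size of the Mcl1 effect was then compared between the backgrounds by an interaction term. It was negative for all 7 genes, with a median of −0.51 beside −0.0089 over all tested genes. The term was called for none by edgeR or DESeq2, as for 0% of all tested genes by edgeR. It uses the same Mcl1 KO livers as the comparisons above, so a high Mcl1 KO liver lowers it. For Fcgr3 it turned to 0.20 with a covariate for small structured RNAs. At an unadjusted p under 0.05, 2 of 7 passed, against 14.4% of all tested genes. These were Tyrobp, with a difference of −1.13 on the log2 scale (SE 0.31, unadjusted p = 0.00354, adjusted p = 0.255 by edgeR), and Fcer1g, with −0.62 (SE 0.27, adjusted p = 0.329 by edgeR). Tyrobp passed when Mcl1 KO replicate 1 was left out (−1.32, adjusted p = 0.0189 by edgeR), a fit in which 4.22% of genes were called lower. Its difference was −0.65 without both Mcl1 KO libraries over 1% small structured RNAs (adjusted p = 0.592 by edgeR) and −0.47 with a covariate for these RNAs (adjusted p = 0.879 by edgeR).

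Sting1 deletion in livers with intact Mcl1 (Sting1 KO against WT) gave no call for any of the 7 genes by edgeR or DESeq2, as for 0% of all tested genes by edgeR, and 0 of 7 at an unadjusted p under 0.05, against 5.45% of all tested genes. Fcgr2b had the largest change, with 42.4, 44.6, and 44.5 CPM in Sting1 KO livers, all above the highest WT liver (37.1). The log2 fold change was 0.41 (SE 0.20, unadjusted p = 0.0568, adjusted p = 0.919 by edgeR). Over all alternatives run, it was between 0.16 and 0.51. Y-linked genes were expressed in WT replicates 2 and 3 but in no Sting1 KO liver, so sex and genotype cannot be fully told apart here. Fcgr3 was the other gene of the 2 whose groups did not overlap, against 7.06% of all tested genes, with 10.2, 10.9, and 12.3 CPM and a change of 0.16. The other 5 genes had changes from 0.03 (Syk) to 0.35 (Tyrobp).

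Averaged over both backgrounds, 6 livers without hepatocyte Mcl1 were set against 6 with it. The 4 genes Fcgr3, Fcer1g, Tyrobp, and Syk were called higher, against 9.9% of all tested genes, and the same 4 had no overlap between the 6 and 6 livers, against 4.27% of all tested genes. Their log2 fold changes were 0.70 for Fcgr3 (SE 0.17, adjusted p = 0.0146), 0.72 for Fcer1g (SE 0.13, adjusted p = 0.00433), 0.998 for Tyrobp (SE 0.16, adjusted p = 0.00174), and 0.74 for Syk (SE 0.12, adjusted p = 0.00201), all by edgeR. These 4 calls were kept in every alternative run. Fcgr2b had a change of 0.05 (95% interval −0.25 to 0.35), Fcgr4 of 0.42 (adjusted p = 0.184 by edgeR), and Fcgr1 of 0.60 (adjusted p = 0.0631 by edgeR, 0.0272 by DESeq2).

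Within each liver, the activating receptors were set against the inhibitory one as the summed CPM per kb of Fcgr1, Fcgr3, and Fcgr4 over that of Fcgr2b. This ratio was 1.56, 1.62, and 2.02 in WT, 2.06, 4.19, and 1.80 in Mcl1 KO, 2.26, 1.70, and 2.14 in Mcl1 Sting1 DKO, and 1.304, 1.36, and 1.70 in Sting1 KO livers. The Mcl1 KO livers overlapped the WT livers, and 1 of them, replicate 2, stood well above the other 11 livers. The ratio of Tyrobp to Fcer1g, the adaptors, was 3.21, 3.44, and 3.50 in WT, 3.68, 5.31, and 5.63 in Mcl1 KO, 3.96, 4.29, and 3.35 in Mcl1 Sting1 DKO, and 3.79, 3.38, and 4.16 in Sting1 KO livers. All Mcl1 KO livers lay above all WT livers here, which means that Tyrobp was further above its WT level than Fcer1g was. With 3 livers a group, an exact permutation test cannot give a two-sided p below 0.10, so no test of these ratios was made.

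**Figure D3:**
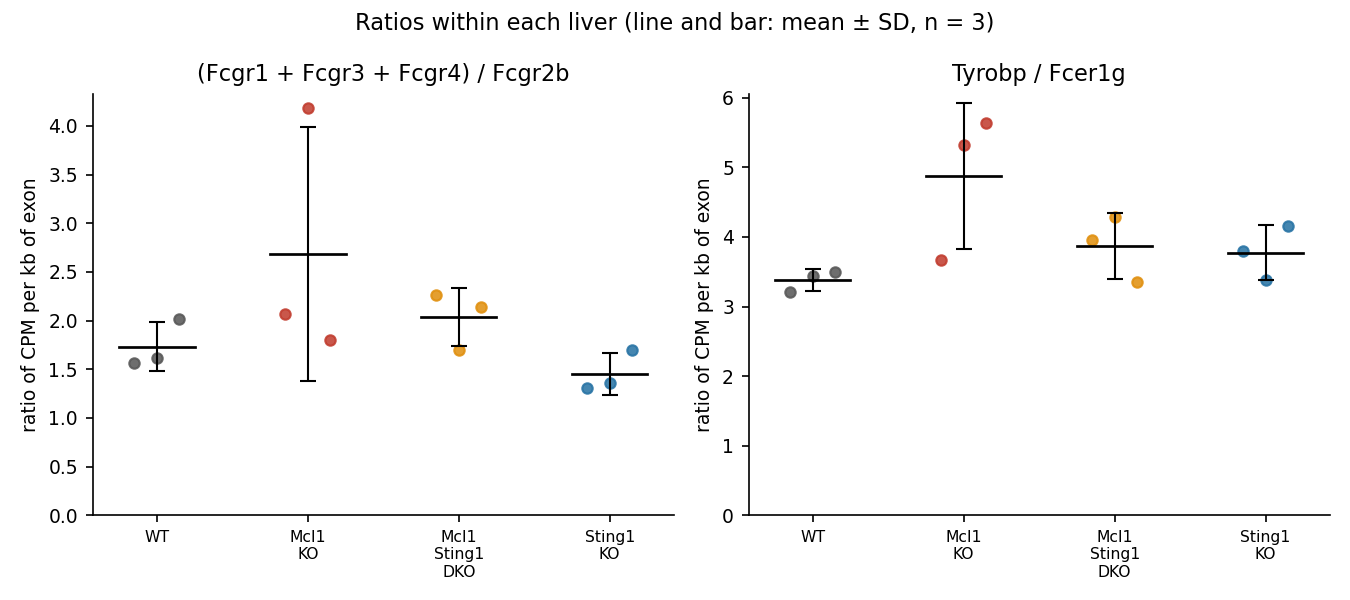
Ratios of CPM per kb of exon within each of the 12 livers, for the 3 activating receptors together over Fcgr2b (left) and for Tyrobp over Fcer1g (right), with the mean and SD of 3 livers. Mcl1 KO replicate 2 is alone at 4.19 on the left, and on the right the 3 Mcl1 KO livers (3.68 to 5.63) are above the 3 WT livers (3.21 to 3.50).

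Across the 12 livers, 6 of the 7 genes varied together. As a description over 12 libraries that share groups and depth, Pearson's r of log2 CPM was 0.946 for Fcer1g and Tyrobp, 0.924 for Fcer1g and Syk, and 0.909 for Fcgr3 and Tyrobp as well as for Fcgr1 and Fcgr4. Fcgr2b had r from −0.01 to 0.43 with the other 6 genes. Among 12531 genes of at least 1 CPM, the most similar to Fcer1g was Cd86, a costimulatory protein of antigen-presenting cells (r = 0.990), followed by Cd44 and Sla. For Tyrobp it was Cd52, a surface protein of leukocytes (r = 0.991), followed by Clic1 and Cd300c2. Syk was most like Parp8, Gpr137b, and the leukocyte integrin chain Itgb2 (r = 0.973, 0.969, and 0.962).

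The receptors had other neighbors. Fcgr1 and Fcgr4 shared Ptpn22, a phosphatase of immune cells, and the hexokinase Hk3 among their 3 most similar genes, with r of 0.937 and 0.940 for Fcgr1 and 0.948 and 0.919 for Fcgr4. The third was Myo1g for Fcgr1 (r = 0.952) and Ly86 for Fcgr4 (r = 0.926). Fcgr3 was most like Zfp772, Otulinl, and Csgalnact2 (r = 0.942, 0.940, and 0.937). Fcgr2b was most like Gimap4 (r = 0.915) and the cytochrome P450 genes Cyp2c69 and Cyp2c68 (r = 0.877 and 0.872).

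Lists of the genes around these 7 were drawn up. They cover the receptors that use the adaptors, the kinases and effectors below Syk, and the ITIM side. Like the 7, these lists and the others below were chosen with earlier results of these data known. Their shares describe them and do not test them. In Mcl1 KO against WT livers, 6 of 12 tested receptors that pair with Fcer1g or Tyrobp were called higher and 0 lower, against 10.8% and 9.43% of all tested genes, with a median log2 fold change of 1.68 beside −0.0049 over all tested genes. Trem2, the lipid-sensing partner of Tyrobp, was at 9.59 ± 4.52 CPM in Mcl1 KO and 0.756 ± 0.0410 CPM in WT livers, a change of 3.57 (SE 0.49, adjusted p = 0.00138 by edgeR). Clec4n, also called Dectin-2 and a partner of Fcer1g, rose by 1.79 (adjusted p = 0.00344 by edgeR). Cd300lb and Cd300c2, activating members of the CD300 family, rose by 1.75 and 1.62 (adjusted p = 0.00699 and 0.00182 by edgeR). Trem2 was also called between Mcl1 Sting1 DKO and Sting1 KO livers, with 3.95 ± 2.10 against 0.315 ± 0.112 CPM and a change of 3.45 (SE 0.52, adjusted p = 0.0206 by edgeR), the 1 call among the 12 there.

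Of 26 kinases and effectors below the ITAM, 12 were called higher and 2 lower in Mcl1 KO livers, when 10.8% of all tested genes were higher and 9.43% lower. Zap70, the relative of Syk known from T cells, had 32.9 ± 10.5 CPM in Mcl1 KO and 10.6 ± 1.496 CPM in WT livers, a change of 1.62 (SE 0.23, adjusted p = 0.00188 by edgeR). A list of 5 T cell markers summed to only 3.60 to 5.54 CPM in Mcl1 KO and 1.58 to 4.75 CPM in WT livers. The cells that carried Zap70 were not tested. Pik3r5, a regulatory subunit of a PI3-kinase, Lck, a Src kinase of T cells, and Blnk, an adaptor phosphorylated by Syk, rose by 1.36, 1.23, and 1.17 (adjusted p = 0.0217, 0.0376, and 0.0245 by edgeR). The 2 that fell were Plcg1, a phospholipase also used by growth factor receptors, by 0.93, and the kinase Tec, by 0.54. The median log2 fold change of the 26 was 0.64, beside the same −0.0049.

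On the ITIM side, 12 of 23 genes were called higher and 1 lower, against 10.8% and 9.43% of all tested genes, with a median log2 fold change of 0.76. Lilrb4a, an ITIM receptor of myeloid cells, had 12.1 ± 4.97 CPM in Mcl1 KO and 2.82 ± 1.25 CPM in WT livers, a change of 2.09 (adjusted p = 0.00344 by edgeR). Cd300a and Clec12a, further ITIM receptors of leukocytes, rose by 1.70 and 1.19, and Dok2, an inhibitory adaptor, by 1.46 (adjusted p = 0.00154, 0.00645, and 0.00742 by edgeR). Inpp5d, the phosphatase that Fcgr2b recruits, rose by 0.65 (adjusted p = 0.0355 by edgeR). Ceacam1, an ITIM protein that hepatocytes also express, fell by 0.81.

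Of 7 other Fc receptors tested, 0 were called higher and 1 lower, against 10.8% and 9.43% of all tested genes. The 1 was Pigr, a receptor that transports IgA, with 716 ± 318 CPM in Mcl1 KO and 1489 ± 308 CPM in WT livers (log2 fold change −1.06, SE 0.28, adjusted p = 0.0237 by edgeR). Of 7 tested genes on the list of other ITAM proteins, 3 were called higher, namely Cd3d, Cd247, and Hcst, which averaged less than 1 CPM. Cd3d and Cd247 are known from T and NK cells, and Hcst is an adaptor that carries no ITAM itself. Of 10 immunoglobulin constant genes, 2 were called higher, Igha and Iglc2. These counts are set against 10.8% of all tested genes. With a covariate for small structured RNAs, no gene of these 3 lists was called in Mcl1 KO against WT livers in either direction, Pigr included. Averaged over both backgrounds, the log2 fold change of Pigr was −0.85 (SE 0.20, adjusted p = 0.0141 by edgeR). With the covariate, 1 of the 7 other Fc receptors was called lower in that average. These genes are neither independent of each other nor of the 7, and Inpp5d, Plcg1, Tec, Ceacam1, Cd3d, Cd247, Hcst, Igha, and Iglc2 were named after their values were seen.

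**Figure D4:**
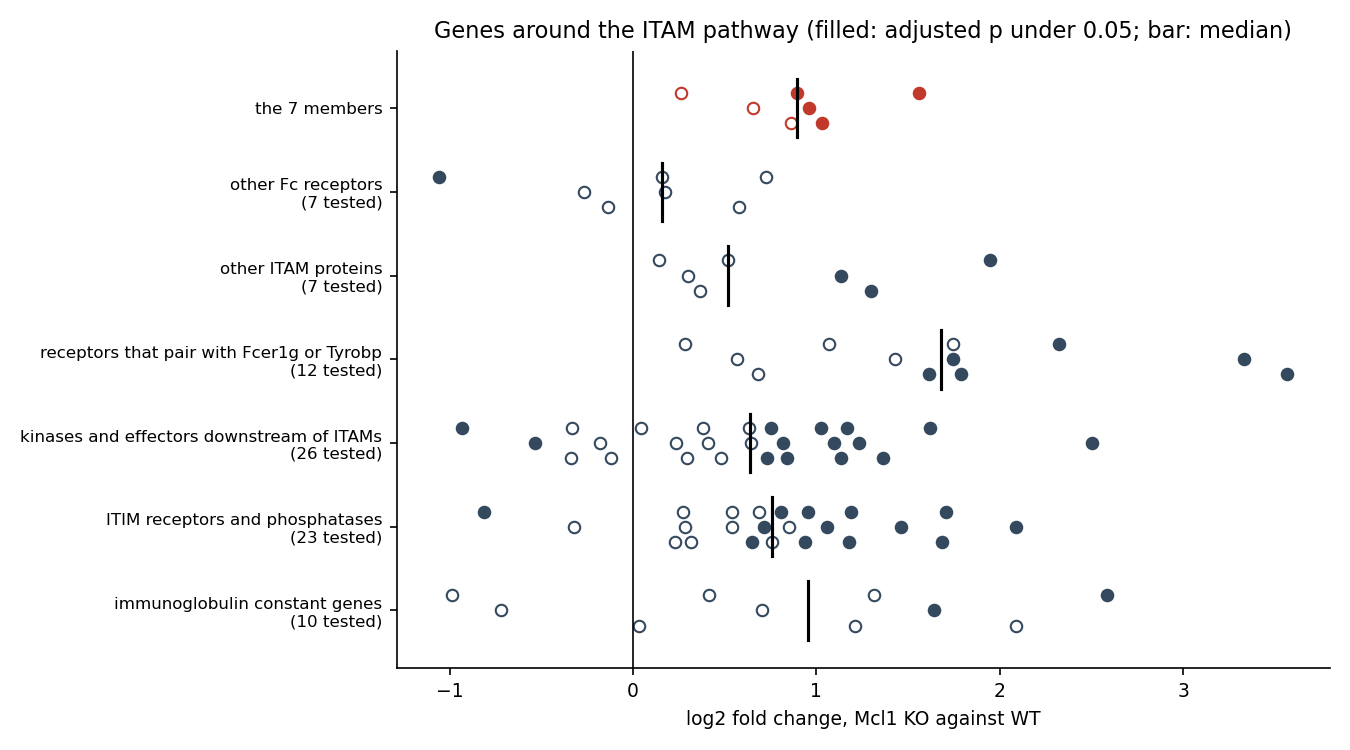
Log2 fold change between Mcl1 KO and WT livers for the 7 genes and for each tested gene of 6 lists, filled where the adjusted p was under 0.05, with the list median as a bar. The receptors that pair with Fcer1g or Tyrobp have the highest median (1.68), and the other Fc receptors a median of 0.16.

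Averaged over both backgrounds, 7 of 12 pairing receptors, 9 of 26 effectors, and 13 of 23 ITIM genes were called higher, against 9.9% of all tested genes, and 0, 1, and 0 lower, against 6.83%. Without the Mcl1 KO libraries over 1% small structured RNAs, a fit that assumes the remaining Mcl1 KO liver to vary like the other groups, 4, 5, and 2 genes of these lists were called higher in Mcl1 KO against WT livers, against 3.67% of all genes tested in that fit, and 0 were called lower, against 1.57%. Averaged over both backgrounds, this fit called 6, 9, and 10 of them higher, against 6.98%. With a covariate for small structured RNAs, 4, 1, and 2 genes were called higher in Mcl1 KO against WT livers, against 2.68% of all tested genes, and 0 lower, against 0.571%. Between Mcl1 Sting1 DKO and Mcl1 KO livers, no gene of the 6 lists was called by edgeR, and DESeq2 called 4 pairing receptors, 2 effectors, and 2 ITIM genes lower and 2 effectors higher, against 2.28% lower and 2.49% higher of the genes it tested.

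Markers of the cells that could carry these genes were measured in the same livers. Recruited monocyte markers (6 genes) summed to 11.4 to 15.1 CPM in WT, 31.0 to 75.1 in Mcl1 KO, 17.0 to 22.0 in Mcl1 Sting1 DKO, and 10.9 to 15.5 in Sting1 KO livers, and 5 of 6 were called higher in Mcl1 KO than in WT, against 10.8% of all tested genes. Mcl1 KO replicate 2, the highest liver for 5 of the 7 genes, was also the highest for this list. General macrophage markers (9 genes) summed to 368 to 535 CPM in WT, 730 to 948 in Mcl1 KO, 622 to 674 in Mcl1 Sting1 DKO, and 454 to 643 in Sting1 KO livers, with 6 of 9 called higher in Mcl1 KO than in WT. Neutrophil markers (7 genes) summed to 3.03 to 4.72 CPM in WT and 9.90 to 23.0 in Mcl1 KO livers, with Ly6g at 0 in all WT livers, and all 5 that were tested were called higher. With a covariate for small structured RNAs, 1 of 6 recruited monocyte, 0 of 9 macrophage, and 0 of 5 tested neutrophil markers were called. In that fit 2.68% of all genes were called higher. The share of these RNAs was highest in Mcl1 KO replicates 2 and 3, so the covariate is partly confounded with genotype. In Mcl1 KO replicate 1, the 3 lists summed to 31.0, 730, and 10.8 CPM, each above the highest WT liver. This is 1 liver, so it cannot show whether the rise holds in Mcl1 KO livers with a low share of these RNAs. The lists thus moved with Tyrobp, Fcer1g, and Fcgr3, and their part in the changes of these genes was not tested.

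Kupffer cell markers (7 genes) gave 2 calls higher and 1 lower, and summed to 313 to 504 CPM in WT and 536 to 601 CPM in Mcl1 KO livers. Sinusoidal endothelium, the other known site of Fcgr2b, had 0 of 7 markers called, with sums of 296 to 429 CPM in WT and 256 to 453 CPM in Mcl1 KO livers. Its lowest Mcl1 KO liver was replicate 2, as for Fcgr2b. Its highest was replicate 1 (453 CPM), whereas that of Fcgr2b was replicate 3 (46.5 CPM). Stellate cell and fibroblast markers gave 4 of 6 called higher, NK cell markers 2 of 4, T cell markers 2 of 4, platelet markers 1 of 3, dendritic cell markers 1 of 5, and B cell, cholangiocyte, and hepatocyte markers 0 of 5, 0 of 5, and 0 of 6, all against 10.8% of all tested genes called higher. With a covariate for small structured RNAs, none of these markers was called higher, and 1 Kupffer cell marker was called lower. No marker of mast cells and basophils passed the filter, and their sum was at most 0.569 CPM. Hepatocyte markers were abundant in every liver, at a sum of at least 101557 CPM.

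**Figure D5:**
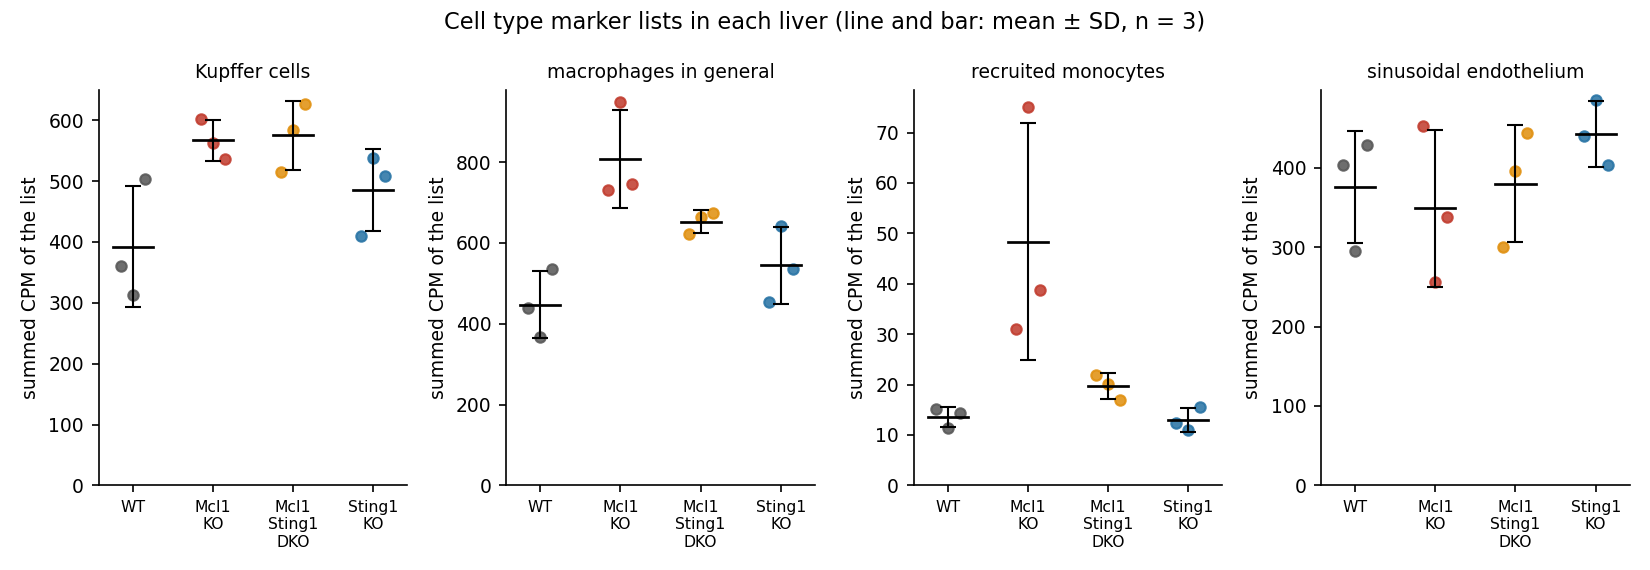
Summed CPM of 4 cell type marker lists in each of the 12 livers, with the mean and SD of 3 livers as line and bar. Recruited monocyte markers are highest in Mcl1 KO replicate 2 (75.1), and sinusoidal endothelium markers overlap between all 4 genotypes.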

How the data were processed

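Total RNA was sequenced from 12 mouse livers on an Illumina NovaSeq, and groups were taken from the genotype labels. The deposited tables hold raw counts, which the authors had not normalized, for each Ensembl identifier. The submitters' processing notes name STAR, featureCounts, and GRCm39. Versions, annotation release, use of strand, and treatment of reads with several matches were not given in the sources used here, and the labels and the paper name different extraction kits. Fcgr2b shares exon bases with an antisense gene that had few counts.

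Counts were tested with edgeR 4.0.16 in R 4.3.3 (TMM, filterByExpr by genotype, glmQLFit and glmQLFTest, prior count of 2, 12 libraries, no covariates) with Benjamini-Hochberg adjustment over 15070 genes and a threshold of 0.05. This stands in place of the SUSHI analysis, whose test was not stated. Names came from GENCODE vM39, which held 39533 of 40551 identifiers. CPM per kb used summed exon lengths. Intervals are 95%, for means of 3 livers a group. Their spread was estimated over all 12 libraries together and drawn toward that of other genes. They therefore do not show the spread of any group alone. The labels number replicates without naming animals. For its macrophage gene plots of WT, Mcl1 KO, and Mcl1 Sting1 DKO livers, the paper counts the samples as biological replicates. Differences were judged against the spread between these samples. Promoters came from a RefSeq table of GRCm38.p6, with positions from a match to GRCm39. The tests were tested on simulated data, and the libraries were checked for duplicates. Libraries with the same replicate number did not deviate together (r from −0.54 to 0.25 in 18 pairs), so no pairing was used.

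Alternatives were other size factors (RLE, upper quartile), no filter, DESeq2 1.42.0, only the libraries compared, covariates for Y-linked expression and small structured RNAs, a replicate block, and each library left out. Leaving out the 2 libraries over 1% small structured RNAs was chosen after seeing the data. The members and all gene lists were chosen with earlier results of these data known. Genes named beside the 7 were at most 4 per list and comparison, with an adjusted p under 0.05, at least 1 CPM, no overlap, and the largest changes, and the 3 genes most correlated with each member.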

Additional observations from a re-analysis of the deposited data

How the results depend on the processing

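Among the 7 genes, 4 were called in Mcl1 KO against WT, 1 (Tyrobp) with small structured RNAs as a covariate and 3 to 5 under every other alternative. In Mcl1 Sting1 DKO against Mcl1 KO, 1 was called by DESeq2 and 0 to 1 with a library left out, and in the interaction 0 to 1 with a library left out. Genes called in Mcl1 KO against WT (3050) came to 1531 with Y-linked expression, 490 with small structured RNAs, 1178 with only the 6 libraries, 824 without the 2 libraries over 1% small structured RNAs, and 1233 to 5232 with a library left out. In Mcl1 Sting1 DKO against Mcl1 KO (0) there were 681 by DESeq2, 1 with Y-linked expression, 2 without the 2 libraries, and 0 to 3108 with a library left out. Against Sting1 KO (121) there were 461 by DESeq2, 45 with Y-linked expression, 17 with only the 6 libraries, and 1 to 249 with a library left out. Sting1 KO against WT (0) gave 51 by DESeq2, 2 with only the 6 libraries, 1 without the 2 libraries, and 0 to 22 with a library left out. The averaged effect (2522) gave 1521 with small structured RNAs and 1711 to 4267 with a library left out, and the interaction (0) 170 by DESeq2 and 0 to 1574. Changes that turned sign were never called. In Mcl1 Sting1 DKO against Mcl1 KO, with small structured RNAs Fcgr1 was 0.020 and Fcgr3 0.15. Fcgr3 was 0.13 without the 2 libraries and −0.53 to 0.063 with a library left out. Fcgr2b was 0.094 with Y-linked expression, 0.00087 without a filter, and −0.14 to 0.17 with a library left out. Against Sting1 KO, leaving out a library gave −0.26 to 0.013 for Fcgr2b and −0.014 to 0.37 for Fcgr4. The averaged effect on Fcgr2b was −0.025 with Y-linked expression and −0.021 to 0.13 with a library left out. In Sting1 KO against WT, Fcgr3 was −0.048 with small structured RNAs and Fcgr4 −0.0098 with Y-linked expression, and leaving out a library gave −0.076 to 0.53 for Fcgr1, −0.11 to 0.48 for Fcgr4, and −0.070 to 0.195 for Syk. The interaction of Fcgr3 was 0.20 with small structured RNAs. With a replicate block, which the labels do not justify as a pairing, 4 members and 2591 genes were called in Mcl1 KO against WT, and no call of a member changed. The cause of these shifts was not tested.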
